A study of Homo sapiens with 15 samples.

Results

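A set of 5 genes for cell-surface or secreted proteins (LRRC15, CDCP1, PDPN, SCUBE3 and PMP22) were followed through 15 RNA-seq libraries of IMR90 cells, a human fetal lung fibroblast line. These 5 of the 57736 genes in the count table were chosen by their measured differences in these same libraries, as being among the strongest responders to senescence or to a short hairpin against TXNRD1, and all 5 passed the filter on low counts that left 15994 genes for testing. TXNRD1 encodes thioredoxin reductase 1, a selenoenzyme that keeps thioredoxin reduced. The 5 groups held 3 libraries each: growing cells in the control condition (growing control), senescent cells in the control condition (senescent control), senescent cells with the hairpin (shTXNRD1), senescent cells treated with the solvent DMSO, and senescent cells treated with Tri-1, a small-molecule inhibitor of thioredoxin reductase 1. The labels state neither how senescence was induced, nor what the control condition carried, nor the dose and duration of Tri-1. A single hairpin condition and a single compound stand for TXNRD1 inhibition. The labels do not say whether replicates were separate cultures, so p-values measure only the spread between these libraries.

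Senescent fibroblasts stop dividing for good, stay metabolically active, and change both what they secrete and what they carry on their surface. SCUBE3 is a secreted glycoprotein with a signal peptide, EGF-like repeats and a CUB domain that can bind the type II TGF-beta receptor, and its family is known for helping Hedgehog and BMP ligands reach their receptors. LRRC15 is a leucine-rich repeat membrane protein known as a marker of TGF-beta-driven myofibroblasts, CDCP1 is a transmembrane glycoprotein phosphorylated by SRC-family kinases, and PDPN (podoplanin) is a mucin-like glycoprotein that links to the actin cortex through ezrin and moesin. PMP22 is a small protein that crosses the membrane several times, is best known from the myelin of Schwann cells, and was also described as a growth-arrest gene of fibroblasts.

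The promoters show how different these genes are in sequence before any value is compared. RefSeq windows (GRCh38.p14) matched 4 of the 5 genes, with 1 window each for LRRC15 and CDCP1 and 3 each for PDPN and PMP22, 8 windows in all; SCUBE3 is named only. The first window of each gene is printed as the 250 bases before the listed start, on the gene's own strand. Capitals mark a match to one of the 5 motifs searched on both strands: AP-1 (TGANTCA), NF-kB (GGGNNTTCC), TEAD (GGAATG), the antioxidant response element (TGACNNNGC) and the TATA box (TATAAA), of which the AP-1 and antioxidant response letters can overlap.
LRRC15, chr3:194369744-194369993, minus strand: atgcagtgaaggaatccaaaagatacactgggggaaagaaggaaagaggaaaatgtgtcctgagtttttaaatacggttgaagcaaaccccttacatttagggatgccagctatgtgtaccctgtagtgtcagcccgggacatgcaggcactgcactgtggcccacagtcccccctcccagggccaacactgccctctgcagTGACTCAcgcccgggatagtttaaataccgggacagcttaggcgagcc
CDCP1, chr3:45146379-45146628, minus strand: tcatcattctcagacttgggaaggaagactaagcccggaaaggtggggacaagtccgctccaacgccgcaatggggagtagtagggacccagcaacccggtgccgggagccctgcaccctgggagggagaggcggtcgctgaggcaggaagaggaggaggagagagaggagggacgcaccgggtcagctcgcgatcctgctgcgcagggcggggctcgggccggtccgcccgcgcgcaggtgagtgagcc
PDPN, chr1:13583507-13583756, plus strand: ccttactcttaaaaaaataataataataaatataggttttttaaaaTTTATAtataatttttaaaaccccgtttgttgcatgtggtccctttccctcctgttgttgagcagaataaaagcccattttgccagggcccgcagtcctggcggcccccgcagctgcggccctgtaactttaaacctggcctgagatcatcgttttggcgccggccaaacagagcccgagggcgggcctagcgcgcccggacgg
PMP22, chr17:15265327-15265576, minus strand: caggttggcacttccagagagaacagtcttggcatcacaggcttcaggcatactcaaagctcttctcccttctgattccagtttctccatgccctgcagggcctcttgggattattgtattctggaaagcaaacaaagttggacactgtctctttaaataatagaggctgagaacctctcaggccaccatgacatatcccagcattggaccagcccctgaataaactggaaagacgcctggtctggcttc

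The LRRC15 window held 1 AP-1 match, TGACTCA, starting 48 bases before the start; 6.57% of 35116 windows of the same length held that motif. CDCP1 had none of the 5 motifs in its window. That window held 20 CpG dinucleotides, with an observed over expected ratio of 0.73, above 62.9% of all windows, and a GC content of 67.6%. In the first PDPN window the capitals mark the TATA letters on the opposite strand (TTTATA), 204 bases before the start, and the second PDPN window held the antioxidant response letters TGACTCCGC 22 bases before its start. That motif was present in 10.9% of all windows and the TATA letters in 10.7%. The first PMP22 window was poor in CpG (1 CpG, ratio 0.07, against a median ratio of 0.56 over all windows), whereas the third had 26 CpG and 2 NF-kB matches (5.78% of windows held at least 1). Gene-level counts cannot say which start was used, and a match describes letters, not binding.

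Levels are given as CPM (read counts scaled to a common library size) adjusted by the trimmed mean of M-values (TMM), which sets each library's counts against its effective depth. Library totals ran from 18033076 to 28909046 counts, with a median of 21156213. TXNRD1 itself averaged 515 ± 12.02 CPM (SD, n = 3) in the senescent control and 22.6 ± 2.30 CPM with shTXNRD1, a log2 change of -4.51 ± 0.076 (SE; edgeR quasi-likelihood test, Benjamini-Hochberg adjusted p = 2.02e-13); under Tri-1 it was 431 CPM against 408 CPM with DMSO (log2 change 0.08, adjusted p = 0.483). A set of 3 libraries stood low in count-weighted transcript GC content: growing control replicate 1 at 47.39%, shTXNRD1 replicate 3 at 46.96% and DMSO replicate 1 at 47.95%. They lay 1.02, 0.81 and 0.68 percentage points under the next library of their group. Without all 3 of them, the 5 genes kept every direction described in the following paragraphs, and the Tri-1 values without them stand beside that test. Because these are bulk samples, fewer cells of a kind and less RNA per cell cannot be told apart.

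SCUBE3 (ENSG00000146197), the secreted member, stood at 30.8, 29.6 and 29.8 CPM in the growing control and at 99.5, 99.3 and 105 CPM in the senescent control. With shTXNRD1 it lay under both ranges at 19.1, 20.7 and 20.5 CPM. The DMSO libraries held 193, 204 and 206 CPM, and the Tri-1 libraries 144, 140 and 144 CPM. SCUBE3 was therefore lowest with the hairpin and highest with DMSO, and no 2 of its 5 groups overlapped. Between the senescent and growing controls the fitted difference was 1.75 ± 0.052 (log2, SE), 3.36-fold, and between shTXNRD1 and the senescent control it was -2.33 ± 0.053, 5.04-fold lower. The mean hairpin level was 66.8% of that in growing cells.

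LRRC15 (ENSG00000172061) measured 16.5, 18.2 and 18.1 CPM in growing cells and 155, 161 and 153 CPM in the senescent control. In the shTXNRD1 libraries it measured 9.45, 9.67 and 9.52 CPM, the tightest group of the 5, and its mean there was 54.2% of the growing level. LRRC15 thus ran from the lowest level with the hairpin to the highest in the senescent control, with growing, Tri-1 and DMSO between them and no overlap of neighbours. With DMSO it stood at 131, 143 and 145 CPM and with Tri-1 at 92.0, 91.6 and 95.2 CPM. The senescent control exceeded the growing control by 3.15 ± 0.057 on the log2 scale (8.87-fold). The hairpin difference of -4.03 ± 0.060, 16.4-fold lower, ranked 52 of 15994 genes by size, the highest rank of the 5 genes in that comparison, as the rule that picked them favoured.

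CDCP1 (ENSG00000163814) was the most abundant of the 5 in senescent cells. It stood at 33.4, 33.0 and 34.5 CPM in the growing control and at 1280, 1315 and 1313 CPM in the senescent control, a log2 difference of 5.28 ± 0.045 (38.8-fold). The hairpin libraries held 635, 655 and 629 CPM, 1.03 ± 0.044 lower on the log2 scale than the senescent control (2.04-fold) and still 19.0 times the mean growing level. DMSO libraries had 1433, 1503 and 1489 CPM and Tri-1 libraries 1453, 1447 and 1475 CPM. Among the 5 genes and their ordered groups, this was the one neighbouring pair whose ranges overlapped.

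PDPN (ENSG00000162493) was close to undetected in growing cells, where the 3 libraries gave 13, 12 and 12 counts (0.516, 0.493 and 0.564 CPM). The senescent control had 61.1, 62.3 and 65.2 CPM, and shTXNRD1 19.7, 19.3 and 21.1 CPM. DMSO gave 104, 109 and 109 CPM and Tri-1 47.3, 49.6 and 52.4 CPM. All senescent groups lay above the growing control and none of the groups overlapped, with shTXNRD1 the lowest of the senescent groups and DMSO the highest. The senescent control differed from growing cells by 6.89 ± 0.116 on the log2 scale (119-fold), resting on 37 growing counts in all, and ranked 99 of 15994 by size. With the hairpin the level was 3.14-fold lower than in the senescent control (-1.65 ± 0.060) but 38.2 times the growing mean.

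PMP22 (ENSG00000109099) went the other way. It was highest in growing cells, at 165, 169 and 154 CPM, and stood at 37.0, 39.8 and 37.6 CPM in the senescent control, 4.27-fold lower (log2 -2.10 ± 0.068). The hairpin libraries lay lower again at 5.15, 4.81 and 5.80 CPM, a further log2 difference of -2.86 ± 0.079 (7.27-fold), which left 3.22% of the growing level. DMSO libraries had 35.1, 31.8 and 33.4 CPM and Tri-1 libraries 29.4, 30.9 and 28.1 CPM. No 2 neighbouring groups overlapped, and PMP22 was the one gene of the 5 in which the hairpin level lay further from the growing level than the senescent control did, on the same side. One gene on the opposite strand, AC005703.6, overlaps its exons in GENCODE 29. The strand setting of the counting is not given in the sources used here, so the origin of reads from the shared stretch is uncertain. The length of that stretch was not measured.

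**Figure D1:**
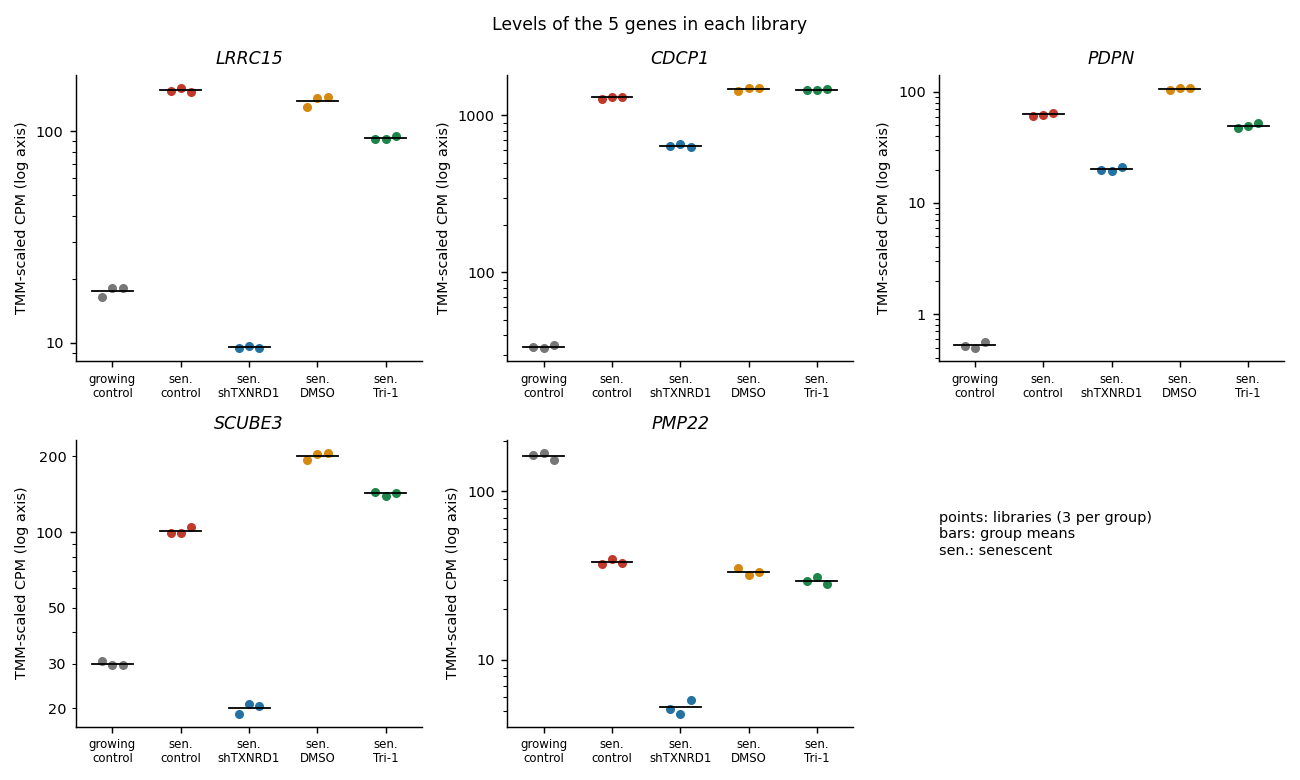
TMM-scaled CPM (log axis, a separate scale for each gene) of the 5 genes in each of the 15 libraries, with points for libraries and bars for the means of 3. LRRC15, SCUBE3 and PMP22 are lowest with shTXNRD1, CDCP1 and PDPN are lowest in growing cells, and the Tri-1 points lie under the DMSO points for every gene but CDCP1.

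These senescence and hairpin values chose the genes, so they are a description and carry no test. Beside them, 27.4% of all 15994 tested genes were called higher and 29.5% lower in senescent against growing cells, and 25.8% were called higher and 24.8% lower with shTXNRD1, at an edgeR adjusted p under 0.05. The groups of 3 did not overlap in 63.6% of genes between senescent and growing cells and in 55.4% between shTXNRD1 and the senescent control. By size of the senescence difference the members ranked 99 (PDPN), 205 (CDCP1), 563 (LRRC15), 1247 (PMP22) and 1661 (SCUBE3). By size of the hairpin difference the ranks were 52 (LRRC15), 159 (PMP22), 302 (SCUBE3), 772 (PDPN) and 2312 (CDCP1). Both comparisons use the senescent control libraries.

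Levels can be compared between the genes only per length of exon. Per kilobase of GENCODE 29 exon, CDCP1 averaged 200 CPM per kb in the senescent control, above 99.2% of 15433 genes with a length, against 5.17 CPM per kb in growing cells, above 60.1%. LRRC15 was next in the senescent control at 26.3 CPM per kb, then PDPN at 17.0, SCUBE3 at 13.8 and PMP22 at 11.8. In growing cells PMP22 led instead, at 50.6 CPM per kb and above 95.6% of genes, and PDPN was last at 0.141, above 10.2%. With shTXNRD1, LRRC15 and PMP22 came together at 1.61 and 1.63 CPM per kb, above 37.3% and 37.6% of genes, while CDCP1 stayed above 98.3%.

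**Figure D2:**
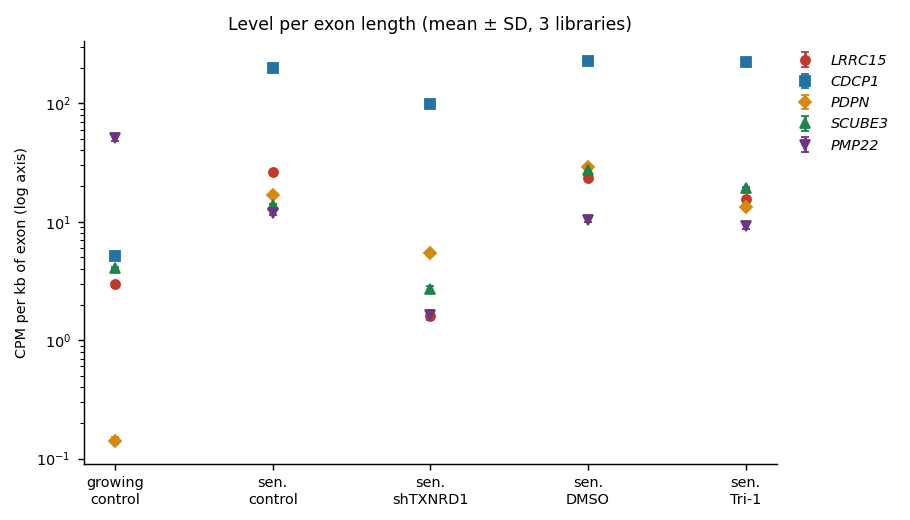
Mean level per kilobase of exon (CPM per kb, log axis; bars are the SD of 3 libraries, hidden where smaller than the symbol) of the 5 genes in the 5 groups. PMP22 leads in growing cells at 50.6 CPM per kb and CDCP1 in every senescent group, between 98.3 and 227 CPM per kb.

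The comparison of Tri-1 with DMSO used 6 libraries outside the senescence and hairpin comparisons that picked the genes, so it is the one tested here. Earlier results of these data were known when the genes and the gene lists were chosen, which limits its independence. The comparison asked whether a chemical inhibitor of thioredoxin reductase 1 moved these genes in senescent cells. PDPN, LRRC15 and SCUBE3 fell, and CDCP1 and PMP22 did not pass the threshold: 3 of 5 were called lower and 0 higher, where 12.2% of all tested genes were called lower and 7.64% higher. PDPN fell most, by 1.11 ± 0.058 on the log2 scale (2.15-fold; adjusted p = 2.07e-08), with all 3 Tri-1 libraries under all 3 DMSO libraries. LRRC15 fell by 0.59 ± 0.055 (1.502-fold; adjusted p = 5.63e-06) and SCUBE3 fell by 0.50 ± 0.050 (1.41-fold; adjusted p = 1e-05), again with every Tri-1 library lower. In 4 of 5 genes the 2 groups did not overlap, which was true of 48.7% of all tested genes.

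CDCP1 differed by -0.02 ± 0.044 (adjusted p = 0.834), with a 95% interval of -0.11 to 0.08 on the log2 scale. PMP22 was lower in 3 of 3 Tri-1 libraries, by -0.18 ± 0.070 with an interval of -0.34 to -0.03, and its adjusted p of 0.0856 missed the threshold. That miss depended on the processing: the adjusted p was 0.0392 when the 6 libraries were fitted alone, 0.0457 with upper-quartile scaling and 0.0341 when only genes averaging at least 5 CPM were tested. Without the 3 low-GC libraries the PDPN difference was -1.13 (adjusted p = 7.33e-10), LRRC15 was at -0.63 (3.99e-08), SCUBE3 at -0.53 (4.19e-07), CDCP1 at -0.04 (0.515) and PMP22 at -0.15 (0.106), so the same 3 calls stood. Tri-1 left LRRC15 at 66.6%, SCUBE3 at 70.7% and PDPN at 46.5% of their DMSO means. Those levels were 5.28, 4.73 and 94.9 times the growing means.

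Size and order differed between hairpin and inhibitor when set side by side. LRRC15 was 16.4-fold lower with shTXNRD1 than in its senescent control and 1.502-fold lower with Tri-1 than with DMSO. For PMP22 the 2 values were 7.27-fold and 1.13-fold, for SCUBE3 5.04-fold and 1.41-fold, and for CDCP1 2.04-fold and 1.01-fold. PDPN showed the closest pair, 3.14-fold and 2.15-fold. The order with the hairpin was LRRC15, PMP22, SCUBE3, PDPN, CDCP1 and with Tri-1 it was PDPN, LRRC15, SCUBE3, PMP22, CDCP1. The difference between the 2 comparisons was not tested for these genes, since the hairpin values chose them.

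The control and DMSO sets of senescent cells did not start from the same levels. Against the senescent control, the DMSO libraries were 1.99-fold higher for SCUBE3 (log2 0.99 ± 0.050) and 1.71-fold higher for PDPN (0.77 ± 0.058). CDCP1 differed by 0.18 ± 0.044, LRRC15 by -0.16 ± 0.055 and PMP22 by -0.19 ± 0.070, with no overlap of the groups in any of the 5. Over all tested genes the 2 groups did not overlap in 39.7%, and 8.36% were called higher and 7.87% lower with DMSO. Whether these senescent groups also differ in culture or time is not given in the sources used here, and solvent and such differences cannot be told apart. SCUBE3 under Tri-1 remained 1.41 times the senescent control mean, while PDPN under Tri-1 was at 79.2% of it.

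**Figure D3:**
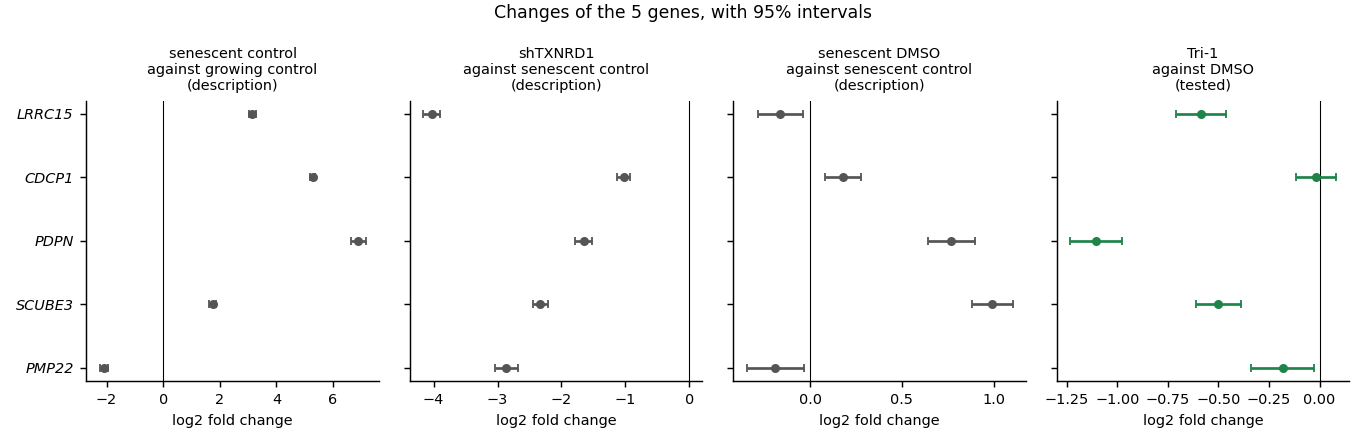
Log2 fold changes of the 5 genes in 4 comparisons (points) with 95% intervals from the edgeR fit; each panel has its own horizontal scale. The Tri-1 panel is the tested one, where PDPN, LRRC15 and SCUBE3 lie clear of 0 and the CDCP1 interval of -0.11 to 0.08 crosses it.

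Genes around SCUBE3 were read from lists of its family and of the pathways it is known to touch. SCUBE1 stayed under 1 CPM on average in every group and was called in none of the comparisons, and SCUBE2 averaged 2.42 CPM in growing cells and 1.59 CPM in the senescent control, lower by 0.60 on the log2 scale (edgeR adjusted p = 0.00842). The SCUBE2 call with shTXNRD1 (-0.73, adjusted p = 0.00535) was lost without shTXNRD1 replicate 2 (adjusted p = 0.0552) and when those groups were fitted alone (0.0555). Of 14 tested Hedgehog genes, 4 were higher and 6 lower in senescence, and 6 were lower and 2 higher with shTXNRD1. With Tri-1, 2 were lower and 1 higher, and the median Tri-1 change was -0.15 against 0.01 over all genes. Of all tested genes, 27.4% were called higher and 29.5% lower in senescence. These shares were 25.8% and 24.8% with shTXNRD1, and 7.64% and 12.2% with Tri-1. PTCH1, the Hedgehog receptor, fell in both: 22.1 CPM in the senescent control and 9.56 with shTXNRD1 (-1.21, adjusted p = 3.93e-08), 20.7 CPM with DMSO and 13.98 with Tri-1 (-0.57, adjusted p = 0.000259). GLI3, a transcription factor of the pathway, fell by 0.76 with the hairpin (adjusted p = 4.23e-07) and differed by -0.13 with Tri-1 (adjusted p = 0.196). The ligand gene SHH had 2 counts in all growing libraries and 101 in the senescent control, and SMO, the signal transducer of the pathway, fell by 1.71 in senescence (adjusted p = 1.04e-05).

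Among 19 TGF-beta family receptors, ligands and Smads, 6 were higher and 8 lower in senescence (median -0.18), 11 were lower and 5 higher with shTXNRD1 and 6 were lower and 0 higher with Tri-1. TGFBR2, the receptor that SCUBE3 can bind, rose by 0.59 in senescence (edgeR adjusted p = 1.08e-06). It fell by 0.30 with the hairpin (adjusted p = 0.000734) and differed by 0.11 with Tri-1 (adjusted p = 0.232). TGFBR1, its signalling partner, fell from 195 CPM with DMSO to 86.3 CPM with Tri-1 (-1.18, adjusted p = 1.49e-06). The ligand TGFB2 fell by 1.55 with shTXNRD1 (adjusted p = 1.67e-09) and by 0.52 with Tri-1 (adjusted p = 0.00031). In senescence TGFB2 was lower by 0.685 (edgeR adjusted p = 3.11e-06), where SCUBE3 was higher. TGFBR3, a co-receptor that presents TGF-beta ligands, rose by 1.55 with shTXNRD1 (adjusted p = 2.41e-08); its lower value with Tri-1 (-0.40, adjusted p = 0.0141) lost its call without DMSO replicate 1 (0.0616), Tri-1 replicate 2 (0.0542) or Tri-1 replicate 3 (0.0528). BMP2, a bone morphogenetic protein ligand, rose by 5.38 in senescence (adjusted p = 1.39e-15), where SMAD3, a signal transducer of the receptors, fell by 1.15 (adjusted p = 8.21e-11). BMP2 differed by 0.01 with Tri-1 (adjusted p = 0.909). The Tri-1 counts of these lists grew when the 6 libraries were fitted alone, to 11 TGF-beta family genes, 4 Hedgehog genes and 3 podoplanin partners called lower. In that fit 2 TGF-beta family genes and 5 podoplanin partners were called higher.

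LRRC15 was set beside 25 tested genes of the myofibroblast and TGF-beta response. Of these, 12 were higher and 6 lower in senescent than growing cells, 18 were lower and 4 higher with shTXNRD1, and 16 were lower and 0 higher with Tri-1. The medians were 0.27, -0.86 and -0.31, against 0.03, -0.01 and 0.01 over all genes. When the 6 Tri-1 and DMSO libraries were fitted alone, 3 of these response genes were called higher with Tri-1. COL10A1, a collagen chain, had 2 counts in growing cells in all, 19.6 CPM in the senescent control, 1.78 with shTXNRD1, 54.1 with DMSO and 21.8 with Tri-1 (-1.31, adjusted p = 1.37e-07). POSTN, a matrix protein of myofibroblasts, rose with shTXNRD1 (60.4 to 120 CPM; 0.99, adjusted p = 1.5e-07) and fell with Tri-1 (110 to 30.5 CPM; -1.86, adjusted p = 3.92e-09), unlike LRRC15, which was lower in both. INHBA, the activin A subunit, rose from 235 to 1153 CPM in senescence (2.29, adjusted p = 7.02e-13) and fell by 1.499 with shTXNRD1 (adjusted p = 1.68e-10) and 0.59 with Tri-1 (adjusted p = 1.08e-05), the directions seen for LRRC15. SULF1, a heparan sulfatase, fell by 2.29 with Tri-1 (adjusted p = 2.09e-08). ACTA2, the smooth-muscle actin of myofibroblasts, fell by 0.68 with shTXNRD1 (adjusted p = 5.26e-07) and by 0.43 with Tri-1 (adjusted p = 0.000205). In senescence ACTA2 was lower by 0.60 (edgeR adjusted p = 9.8e-07), where LRRC15 was higher. Of 12 tested leucine-rich repeat surface genes, 6 were higher and 3 lower in senescence, 5 higher and 6 lower with shTXNRD1, and 1 higher and 3 lower with Tri-1. LRRC17, a secreted leucine-rich repeat protein, was higher in senescence by 2.38 (adjusted p = 4.91e-12), lower with shTXNRD1 by 1.59 (adjusted p = 8.75e-10), and at -0.03 with Tri-1 (adjusted p = 0.794).

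Kinases, proteases and membrane partners of CDCP1 numbered 14 tested genes. In senescence 9 were higher and 3 lower, with shTXNRD1 2 were higher and 7 lower, and with Tri-1 1 was higher and 2 lower. Over all tested genes, 7.64% were called higher and 12.2% lower with Tri-1. The higher call, EGFR (0.195, edgeR adjusted p = 0.0174), was lost with no filter (0.136). It was also lost without DMSO replicate 1 (0.0554), 2 (0.0565) or 3 (0.0539), or Tri-1 replicate 3 (0.0554). Of the lower calls, ITGB1 (-0.339, adjusted p = 0.0156) was lost without DMSO replicate 1 (0.0779) or Tri-1 replicate 1 (0.0511). FYN, a SRC-family kinase that phosphorylates CDCP1, rose by 0.64 in senescence (adjusted p = 2.6e-07), fell by 0.74 with shTXNRD1 (adjusted p = 1.24e-07) and fell by 0.35 with Tri-1 (adjusted p = 0.00058). PLAU, a protease upstream of the plasmin that can cleave CDCP1, rose from 1379 to 4525 CPM in senescence (1.71, adjusted p = 1.56e-11) and differed by -0.13 with shTXNRD1 (adjusted p = 0.092) and 0.09 with Tri-1 (adjusted p = 0.354). MET, from the same list, went the other way in senescence, with a log2 change of -1.29 (edgeR adjusted p = 4.24e-08).

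Podoplanin partners gave no single direction. Of 9 tested, 3 were higher and 3 lower in senescence, 3 higher and 5 lower with shTXNRD1, and 3 higher and 0 lower with Tri-1, where PDPN fell. CD44, a hyaluronan receptor that binds podoplanin, stood at 5173 CPM in the senescent control and 1977 CPM with shTXNRD1 (-1.39, adjusted p = 7.37e-09) and differed by 0.18 with Tri-1 (adjusted p = 0.129). The cortex linkers split in senescence: EZR fell by 0.84 (adjusted p = 1.89e-08) and RDX by 0.78 (adjusted p = 1.89e-05), while MSN rose by 0.31 (adjusted p = 0.000122). CD9, a tetraspanin partner, rose by 1.32 in senescence (adjusted p = 4.7e-10) and fell by 0.81 with shTXNRD1 (adjusted p = 1.78e-07). With Tri-1 the chaperone HSPA9 rose by 0.36 (adjusted p = 0.00802) and the amino acid transporter subunit SLC3A2 by 0.31 (adjusted p = 0.00782); the third, MSN (0.16, adjusted p = 0.0415), lost its call when any 1 of the 6 libraries was left out (adjusted p from 0.0588 to 0.165). CLEC1B, the platelet receptor for podoplanin, had 0 counts in all libraries.

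The relatives of PMP22 did not all share its directions. Of 5 tested, 2 were higher and 2 lower in senescence, 1 higher and 3 lower with shTXNRD1, and 1 higher and 3 lower with Tri-1. EMP1 rose from 149 to 223 CPM and EMP2 from 25.8 to 53.2 CPM in senescence, where PMP22 was lower, by 0.59 (adjusted p = 3.39e-06) and 1.05 (adjusted p = 1.79e-08) on the log2 scale. With shTXNRD1 EMP1, EMP2 and EMP3 all fell, by 1.27 (adjusted p = 2.52e-09), 1.81 (adjusted p = 2.02e-10) and 1.38 (adjusted p = 2.06e-09), each less than the -2.86 of PMP22. TMEM47 shared the senescence direction of PMP22 (253 to 92.0 CPM; -1.46, adjusted p = 2.93e-09) and differed by -0.09 with shTXNRD1 (adjusted p = 0.41), and PERP rose with shTXNRD1 by 0.41 (adjusted p = 0.00157). With Tri-1, EMP2 fell by 0.44 (adjusted p = 0.000638). The other Tri-1 calls each depended on single libraries: EMP1 (-0.26, adjusted p = 0.0145) lost its call without DMSO replicate 1 (0.071) or Tri-1 replicate 2 (0.0571), EMP3 (0.28, adjusted p = 0.0117) without Tri-1 replicate 3 (0.0514), and TMEM47 (-0.29, adjusted p = 0.028) without DMSO replicate 1 (0.117), DMSO replicate 3 (0.0524), Tri-1 replicate 2 (0.0809) or Tri-1 replicate 3 (0.0856).

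**Figure D4:**
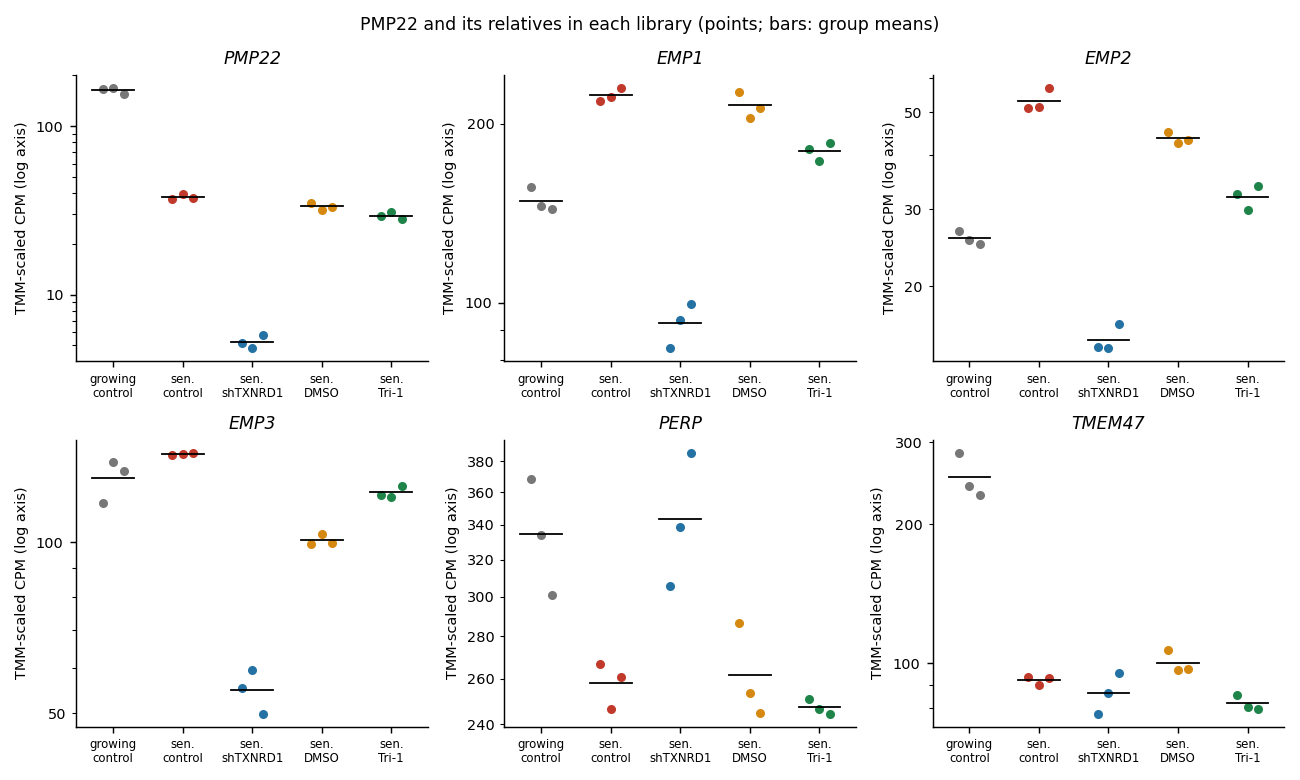
TMM-scaled CPM (log axis, a separate scale for each gene) of PMP22 and its 5 tested relatives in each library, with bars for the means of 3. PMP22 and TMEM47 stand highest in growing cells, EMP1 and EMP2 stand higher in the senescent control than in growing cells, and PMP22, EMP1, EMP2 and EMP3 are lowest with shTXNRD1.

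**Figure D5:**
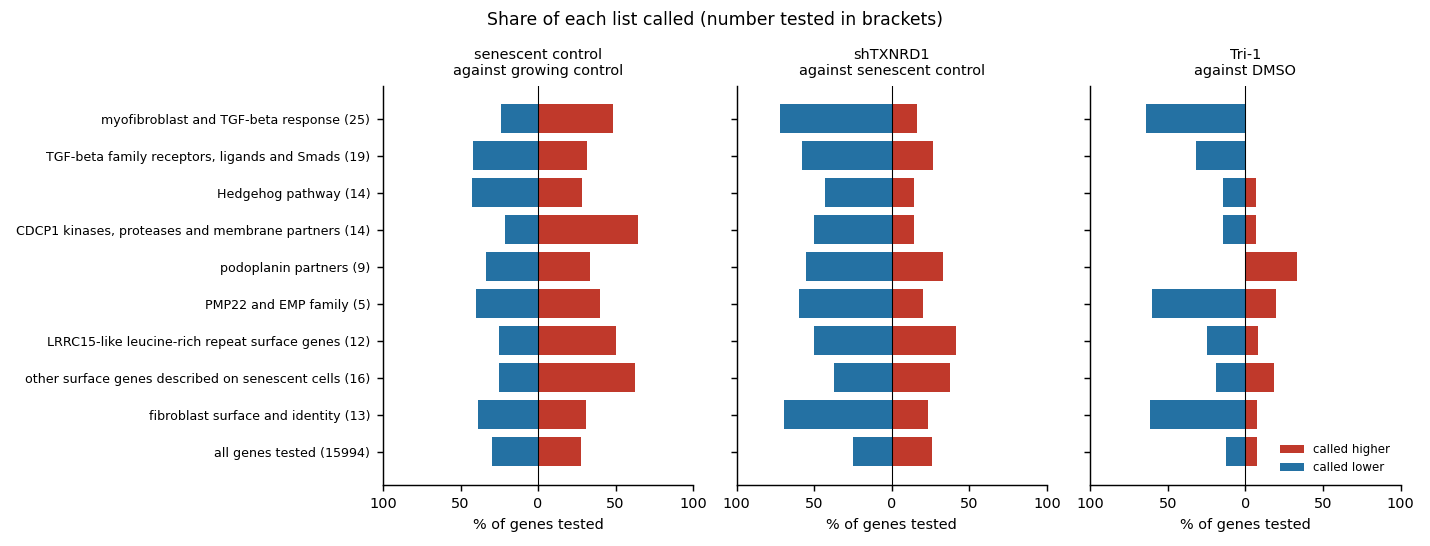
Percent of the tested genes of 9 lists, and of all 15994 genes, called higher (right) or lower (left) in 3 comparisons at an edgeR adjusted p under 0.05. With Tri-1, 16 of 25 myofibroblast and TGF-beta response genes are called lower and 3 of 9 podoplanin partners higher, beside 12.2% lower and 7.64% higher of all genes.

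Markers of other cell types that could carry these proteins were read next. Lymphatic endothelium is the classic site of podoplanin, and its 3 markers (PROX1, LYVE1, FLT4) summed to between 0.235 and 0.942 CPM over all libraries, none passing the filter. Of 5 alveolar type 1 markers, AQP5 was at 0 in all libraries and the sum was mostly CAV1 (571 CPM in the senescent control, 953 in growing cells), which fibroblasts also express. The 5 Schwann cell markers, the other home of PMP22, summed to between 0.833 and 2.53 CPM, with S100B at 0 throughout. Epithelial markers, 7 genes relevant to CDCP1, summed to between 45.8 and 82.8 CPM with ESRP1 at 0 in 3 groups. Of the 5 tested, 1 was called higher and 2 lower in senescence, and 1 higher and 1 lower with shTXNRD1. With Tri-1, 1 of them was called higher and 0 lower. The 6 leukocyte markers did move with the groups, from 15.6 to 26.0 CPM in growing cells to 72.2 to 80.6 in the senescent control, 19.1 to 38.8 with shTXNRD1, 56.5 to 73.9 with DMSO and 91.5 to 93.3 with Tri-1; nearly all of this was CD68, a lysosomal protein, and CD3E was at 0. Of 4 blood endothelial markers that matched, the sum ran from 51.3 CPM with Tri-1 to 171 CPM in the senescent control and was mostly TEK, a receptor for angiopoietins (85.2 CPM with DMSO, 50.7 with Tri-1). KDR, a VEGF receptor on the same list, went from 0.471 CPM in the senescent control to 8.24 CPM with shTXNRD1 (4.10, adjusted p = 1.58e-08), where TEK fell by 0.56 (adjusted p = 0.000122). The part of these markers in the results was not tested. The fibroblast markers COL1A2 (6376 CPM in growing cells) and VIM (4592 CPM) were abundant; of 13 fibroblast genes, 4 were higher and 5 lower in senescence, 3 higher and 9 lower with shTXNRD1, and 1 higher and 8 lower with Tri-1. The 1 higher was VIM (0.15, adjusted p = 0.03), whose call was lost when any 1 of the 6 libraries was left out (adjusted p from 0.0644 to 0.103). VIM was lower in senescence by 0.68 (edgeR adjusted p = 1.37e-08) and with shTXNRD1 by 1.27 (adjusted p = 5.6e-11). PDGFRA, the platelet-derived growth factor receptor of fibroblasts, fell by 0.64 with shTXNRD1 (adjusted p = 9.89e-06) and by 0.89 with Tri-1 (adjusted p = 2.86e-06). For 16 other surface genes described on senescent cells these counts were 10 and 4, 6 and 6, and 3 and 3; the 3 higher with Tri-1 became 1 with upper-quartile scaling, with no filter, at a mean of at least 5 CPM or with a replicate block, and 5 with the 6 libraries fitted alone.

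For each of the 5, the 3 genes whose log2 CPM followed it most closely over the 15 libraries were named by Pearson's r, as a description; the libraries fall into 5 groups, so r mostly reads the group means. SCUBE3 was nearest to MICAL2 (r = 0.994), PDZK1 (0.988) and IDS (0.988), and LRRC15 to B4GALT1 (0.992), PTX3 (0.986) and TSPYL2 (0.985). CDCP1 was nearest to PI3 (0.998), BCL2A1 (0.997) and TNFSF15 (0.997), PDPN to SAT1 (0.998), ESM1 (0.997) and QPCT (0.995), and PMP22 to PAPSS2 (0.995), KCMF1 (0.994) and TPM1 (0.992). These 15 libraries include the 6 of the Tri-1 comparison, so the Tri-1 values of the neighbours were part of their choice and are given without a test. Beside PDPN, ESM1, an endothelial proteoglycan, differed by -1.21 on the log2 scale, QPCT by -0.56 and SAT1 by -0.52. Beside LRRC15, PTX3 differed by -0.38, TSPYL2 by -0.10 and B4GALT1 by 0.00. Beside PMP22, TPM1, an actin-binding tropomyosin, differed by -0.31, KCMF1 by -0.11 and PAPSS2 by -0.04. Beside SCUBE3, PDZK1 differed by -0.62, IDS by -0.09 and MICAL2 by -0.04. Beside CDCP1, itself at -0.02, BCL2A1 differed by -0.47, TNFSF15 by -0.25 and PI3 by -0.24.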

How the data were processed

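RNA-seq counts per Ensembl gene were analysed as the authors deposited them, 1 table of 15 libraries of IMR90 fibroblasts in 5 groups of 3. Per the labels' protocols, total RNA (RNeasy, DNase-treated) went into KAPA RNA HyperPrep libraries, which a NextSeq 500 read as 75-bp pairs. Tools and builds listed per the submitters' processing notes are hg19, mm10, RSEM 1.2.3 and DESeq2; aligner, annotation and strand setting: not given in the sources used here. The deposited counts are whole numbers and may be rounded RSEM estimates, which is not stated; genes that share reads with near-identical copies are then uncertain.

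Symbols were matched for 52301 of 57736 genes, and genes without one held 0.68% of counts. Each library was scaled by TMM, genes were kept by filterByExpr by group, and 1 quasi-likelihood model with robust estimation (edgeR 4.0.16, R 4.3.3) was fitted to all 15 libraries, with 10 residual degrees of freedom. Tests were two-sided, with Benjamini-Hochberg adjustment over 15994 genes and calls at an adjusted p under 0.05. Values are mean ± SD over 3 libraries or log2 fold change ± SE; their number of 3 limits the precision, and an exact permutation test of 3 against 3 could not go under p = 0.1. The script was tested on simulated data. Samples were grouped by their labels.

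The members and the gene lists were chosen with earlier results of these data known. The members were picked on the senescence and hairpin comparisons, so those, and DMSO against the senescent control, which shares libraries with them, are described without a p; Tri-1 against DMSO was tested. Besides the 5 members, genes named were TXNRD1, the tested genes of the SCUBE, PMP22 and podoplanin-partner lists, the 2 genes with the smallest p of each other list and comparison, and for each member the 3 genes of highest correlation (log2 CPM with a prior count of 2, mean log2 CPM at least 1); not all were printed. TGFBR2, ACTA2, COL1A2, CAV1, CD68, TEK and KDR were named outside this rule, for their role, after their values were seen. Alternatives were 3 other scalings, 2 other filters, a replicate block, limma-voom (limma 3.58.1), DESeq2 1.42.0, a fit of the compared groups alone, each library left out, and, chosen after seeing the data, 3 low-GC libraries left out. Promoter windows came from RefSeq (GRCh38.p14), not the build of the counts, and were used for their sequence only.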

Additional observations from a re-analysis of the deposited data

How the results depend on the processing

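Over 16 alternatives, the Tri-1 calls of PDPN (log2 change -1.15 to -1.07), LRRC15 (-0.63 to -0.56) and SCUBE3 (-0.53 to -0.48) stood, with adjusted p no higher than 0.000137. CDCP1 was not called in any of them (adjusted p 0.475 to 1). PMP22 ran from -0.22 to -0.15 and became called in 3: upper-quartile scaling (-0.21, adjusted p = 0.0457), genes averaging at least 5 CPM (-0.21, 0.0341) and the compared groups alone (-0.19, 0.0392); the cause was not tested. So 3 to 4 members were called lower. The described senescence and hairpin differences kept their direction in all alternatives.

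The number of genes called under Tri-1 depended on the fit. Against 1222 higher and 1954 lower, the compared groups alone gave 2344 and 3037, no filter gave 812 higher, and leaving out the 3 low-GC libraries gave 1967 higher. With 1 library left out, 772 to 845 were higher and 1372 to 1550 lower; the higher count was 781 without DMSO replicate 1, 793, 799 and 772 without Tri-1 replicates 1, 2 and 3. For DMSO against the senescent control, 1337 were higher and 1258 lower; the groups alone gave 2229 higher, the low-GC libraries left out gave 2028 lower, and leaving out 1 library gave 893 to 1022 higher and 842 to 971 lower.

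Same-numbered replicates did not deviate together in every pair (Tri-1 with DMSO: correlations of -0.00, 0.13 and -0.26), so the numbers were not read as pairs. With the replicate number as a block, LRRC15 was at -0.59 (adjusted p = 2.76e-05), PDPN at -1.11 (1.85e-07), SCUBE3 at -0.50 (8.01e-05), CDCP1 at -0.02 (0.853) and PMP22 at -0.18 (0.131), with 1018 genes called higher and 1725 lower.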
